A study of Mus musculus with 40 samples.

Results

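Male mice in which hippocampal H2A.Z was deleted and the H2A.Z.1KQ mutant put in its place (n = 5, mice 8, 27, 28, 44 and 45) were compared with male mice that had the deletion alone (H2A.ZKO, n = 4, mice 3, 4, 21 and 42). The mice were chosen by their titles, and they are 9 of the 40 mice in the study, which measured RNA from hippocampal tissue in 10 groups of sex and virus. The study set out to learn what acetylation of H2A.Z.1 does in memory, apart from that of other histones. Each mouse gave 1 library. The p-values rest on the spread between mice of the same group, estimated over all 40 mice and not from the 9 alone.

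H2A.ZKO mice received an AAV-DJ virus with Cre under the synapsin promoter, which is active in neurons, mixed with a virus that carried only the 3xMyc tag. H2A.Z.1KQ mice received the same Cre virus mixed with a virus in which the CMV promoter drives 3xMyc-tagged H2A.Z.1 with lysines 4, 7 and 11 changed to glutamine, a residue that resembles acetylated lysine. According to the study's methods the mice of both groups are floxed for H2afz and H2afv, now named H2az1 and H2az2. Both groups were injected into the hippocampus of each hemisphere and given 2 weeks to recover before behavioural tests. Their age is not given in the sources used here. Further males serve as a reference: Myc mice with the 3xMyc virus and no Cre (n = 4), H2A.Z.1WT mice with Cre and wild-type H2A.Z.1 (n = 5), and H2A.Z.1KA mice with Cre and the same lysines changed to alanine (n = 4). Female H2A.ZKO (n = 4) and H2A.Z.1KQ mice (n = 3) serve for a comparison of the sexes. Sources differ on the Myc mice, whose genotype is WT in the labels, whereas the study's supplement has every construct go into floxed mice. If they were WT, genotype and Cre cannot be told apart in a value against Myc. Cre acts only in neurons that took up the virus and the CMV promoter is not restricted to neurons, whereas the RNA came from all cells of the tissue. In such bulk tissue, fewer cells of a type and less RNA per cell cannot be told apart.

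H2A.Z is a variant of histone H2A that remodelling complexes of the SRCAP and p400-TIP60 type place into nucleosomes around transcription start sites. Its N-terminal tail carries lysines that can be acetylated, and the acetylated form is found mainly at active promoters. In the hippocampus H2A.Z is known as a histone whose exchange and removal accompany memory formation. The mutated positions lie in the first bases of the coding sequence of H2az1, given here as read from the GRCm39 genome at the start codon on chromosome 3, position 137570455, plus strand, which lies in an exon. Capitals mark the codons of lysines 4, 7 and 11, counted without the initiator methionine, and these are the codons that the KQ construct changes.
H2az1: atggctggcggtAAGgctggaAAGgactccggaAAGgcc

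Levels are given as CPM, counts relative to the size of the library after TMM scaling, log2 fold changes are H2A.Z.1KQ minus H2A.ZKO unless another pair is named, and SE is their standard error. A gene is called when its adjusted p from edgeR's quasi-likelihood test, adjusted by Benjamini and Hochberg over all 28449 genes tested, is under 0.05. Mice are always listed in the order 3, 4, 21 and 42 for H2A.ZKO, 8, 27, 28, 44 and 45 for H2A.Z.1KQ, and 1, 22, 23 and 41 for Myc. Total counts in the 9 mice ran from 24342921 to 43158420 with a median of 36113597, against 24342921 to 45982772 over all 40 mice, and 25678 to 27593 genes had a count. Within the H2A.ZKO and within the H2A.Z.1KQ group no library repeated another, since the chi-square per degree of freedom between mice was at least 21.9. Other pairs of libraries were not compared.

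H2az1 itself did not tell the groups apart. It stood at 37.6, 37, 33.9 and 17.7 CPM in H2A.ZKO mice, at 33.6, 33.7, 36.6, 33.1 and 50.1 CPM in H2A.Z.1KQ mice and at 32.3, 37.2, 34.9 and 27 CPM in Myc mice. The lowest value belonged to H2A.ZKO mouse 42 and the highest to H2A.Z.1KQ mouse 45, and the other mice overlapped. The log2 fold change was 0.24 with a 95% interval of -0.07 to 0.55 and an adjusted p of 0.283. H2az2 ranged from 20.8 to 29.3 CPM in H2A.ZKO and from 19.5 to 27.6 CPM in H2A.Z.1KQ mice, with a log2 fold change of -0.18 (95% interval -0.39 to 0.02, adjusted p = 0.213). Counts cover every exon of the gene and every cell, and H2az1 (GRCm39 chromosome 3, 137570072 to 137572690, plus strand) can take up reads from the viral coding sequence as well. In these counts the targeted genes therefore do not check the labels, and the group names below are those of the labels. The study's own mRNA measurements did separate its groups. In them H2afz was reduced by Cre without replacement, and H2afv was reduced in every group with Cre. H2afz was above Myc with each form of H2A.Z.1 put back.

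Putting back H2A.Z.1KQ was accompanied by lower expression of immune, proliferation and cell death genes and by higher expression of ion channel and synaptic genes. Of the 28449 genes tested, 6087 (21.4%) were called, 2481 higher and 3606 lower in H2A.Z.1KQ mice, which is 8.72% and 12.7% of the genes tested. The lower genes moved further. Their median change was 1.05 on the log2 scale in size against 0.41 for the higher genes, and 1887 of them (52.3%) changed by more than 1 log2 unit, against 292 (11.8%) of the higher genes. A total of 115 genes were lower by more than 4 log2 units. The median log2 fold change over all genes was 0.007. Every H2A.Z.1KQ mouse lay above every H2A.ZKO mouse for 1464 genes (5.15% of those tested) and below for 2600 (9.14%). Without H2A.ZKO mouse 4 the number of genes called higher was 1333.

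**Figure D1:**
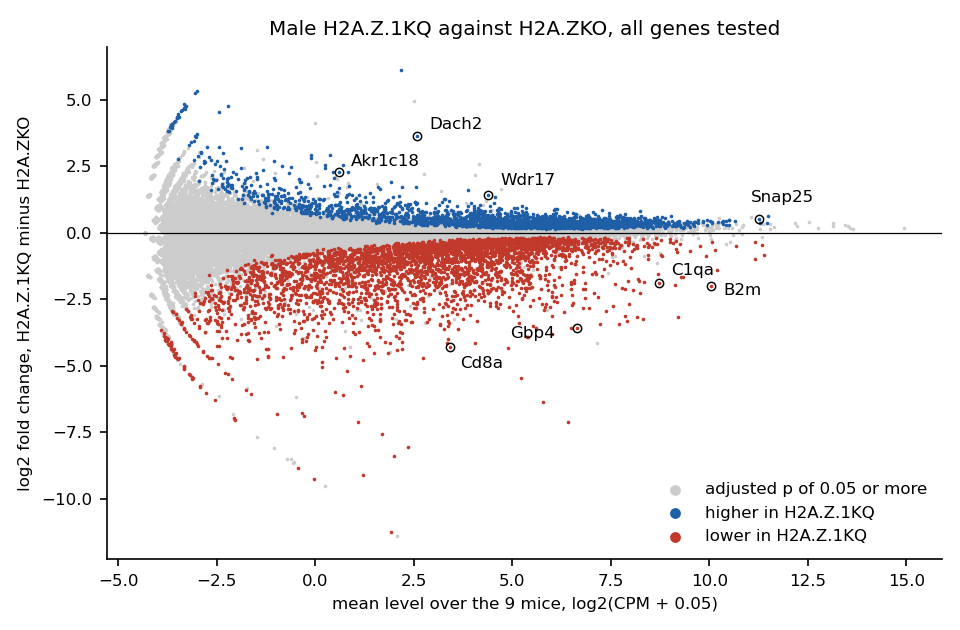
Each point is 1 of the 28449 genes tested, with its mean level over the 9 mice on the horizontal axis, log2(CPM + 0.05), and its log2 fold change, H2A.Z.1KQ minus H2A.ZKO, on the vertical axis. The 2481 genes called higher (blue) form a narrow band over 0, whereas the 3606 called lower (red) spread down past -4, and 8 genes are named.

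The genes called lower made up 136000, 163100, 150600 and 121900 CPM of the libraries of H2A.ZKO mice and 89410, 79050, 76150, 73580 and 79890 CPM in H2A.Z.1KQ mice, against 62490 to 69610 CPM in Myc mice. The genes called higher took up 183900, 158000, 191100 and 205900 CPM in H2A.ZKO, 232200, 229600, 236400, 262100 and 237100 CPM in H2A.Z.1KQ and 247600 to 250400 CPM in Myc mice. These sums are over genes chosen by the same comparison and describe how much of each library is involved. On the first principal component of the 2000 most variable genes, which held 69.4% of the variance among the 13 Myc, H2A.ZKO and H2A.Z.1KQ males, H2A.ZKO mice lay at -61.0 to -88.2, H2A.Z.1KQ mice at -18.5 to 28.6 and Myc mice at 59.6 to 70.4. H2A.Z.1KQ mice thus fell between the other groups and overlapped neither. Against Myc, 990 genes were higher (3.48% of those tested) and 470 lower (1.65%) in H2A.Z.1KQ mice, and 4900 were higher (17.2%) and 4104 lower (14.4%) in H2A.ZKO mice. These comparisons share the Myc mice with each other and the H2A.Z.1KQ or H2A.ZKO mice with the main one, so their values are set side by side below without a count of shared genes.

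Interferons signal through STAT and IRF factors, which switch on a large set of antiviral genes, among them sensors of foreign nucleic acid and GTPases that attack intracellular pathogens. All 40 interferon-stimulated genes and all 16 interferon-induced GTPases were lower in H2A.Z.1KQ than in H2A.ZKO mice, with median log2 fold changes of -2.14 and -3.15. Of 21 nucleic acid sensors tested, 20 were lower (median -1.62), and the exception was Adar, which edits double-stranded RNA, at a log2 fold change of -0.048. Against Myc, 37 interferon-stimulated genes, 15 GTPases and 14 sensors were higher in H2A.Z.1KQ mice, and 40, 16 and 20 in H2A.ZKO mice. Stat2, which encodes a subunit of the factor that interferon activates, was at 106, 160, 208 and 143 CPM in H2A.ZKO and 79.3, 52.6, 46.6, 46.3 and 37.8 CPM in H2A.Z.1KQ mice, with 31.9, 33.3, 29.8 and 29.7 CPM in Myc mice. The groups did not overlap, and the log2 fold change was -1.56 (SE 0.20, adjusted p = 9.78e-07). Irgm2, an immunity-related GTPase, fell from 124, 146, 247 and 176 CPM to 58.9, 25.2, 20.8, 11.1 and 16.2 CPM (log2 fold change -2.72, SE 0.45, adjusted p = 3.72e-05). Gbp4, a guanylate-binding protein, went from 114, 132, 413 and 155 CPM to 38.4, 18.1, 9.91, 9.16 and 10.5 CPM, and mouse 21 held the highest value among H2A.ZKO and mouse 8 among H2A.Z.1KQ mice. The log2 fold change of Gbp4 was -3.57 (SE 0.53, adjusted p = 9.14e-06), and reads of the Gbp genes can be split between near-identical copies.

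Among the sensors, Dhx58, which encodes the RIG-I-like receptor LGP2, was at 14.9, 26.1, 28 and 13.1 CPM in H2A.ZKO and 7.17, 3.98, 5.06, 2.43 and 3.67 CPM in H2A.Z.1KQ mice. This difference of -2.21 on the log2 scale (SE 0.29) had an adjusted p of 1.22e-06. Sting1, the adaptor that relays the sensing of cytosolic DNA, went from 16.8 to 33.6 CPM in H2A.ZKO to 5.13 to 9.53 CPM in H2A.Z.1KQ mice. Tlr3, a receptor for double-stranded RNA, went from 58.9 to 83.8 CPM to 27.2 to 41.3 CPM, with log2 fold changes of -1.86 (adjusted p = 3.95e-07) and -1.11 (adjusted p = 8.5e-07). Oasl1 (log2 fold change -2.85), Lgals9 (-1.82) and Xaf1 (-1.80) were also lower, with adjusted p of 1.39e-06, 2.12e-07 and 7.95e-07. Every interferon-stimulated gene and GTPase was called with each of the 9 mice left out in turn, and so were 19 or 20 of the sensors.

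The interferon-stimulated response element is the DNA repeat that STAT and IRF factors bind, and its core, GAAA, any 2 bases and GAAA again, was searched on both strands in the 250 bases before and 50 after the start of each gene's canonical transcript. Of 23725 genes tested that had such a window, 896 (3.78%) held it. The share was 6.24% (212 of 3399) among genes called lower, 2.35% (54 of 2293) among genes called higher and 3.49% among genes not called. It was 42.5% (17 of 40) for interferon-stimulated genes, 56.2% (9 of 16) for GTPases and 45% (9 of 20) for sensors, and 6.25% for both cytosolic ribosomal proteins (5 of 80) and mitosis genes (2 of 32). In other immune lists that fell the share was 15.2% (5 of 33) for MHC class I and peptide loading, 9.68% (3 of 31) for chemokines and receptors, 9.09% (1 of 11) for MHC class II and 5.56% (2 of 36) for T and NK cells. For sodium, calcium and HCN channels, most of which rose, it was 3.23% (1 of 31). A match describes these letters only and is not a site shown to be bound. As examples of promoters of genes that fell, Stat2 and Irgm2 were picked by smallest p among list members with a match before the start. The match is therefore not a result for them. Their 250 bases before the start (Stat2 GRCm39 chr10:128106102-128106351, Irgm2 chr11:58090194-58090443, both plus strand) are given with the match in capitals.
Stat2: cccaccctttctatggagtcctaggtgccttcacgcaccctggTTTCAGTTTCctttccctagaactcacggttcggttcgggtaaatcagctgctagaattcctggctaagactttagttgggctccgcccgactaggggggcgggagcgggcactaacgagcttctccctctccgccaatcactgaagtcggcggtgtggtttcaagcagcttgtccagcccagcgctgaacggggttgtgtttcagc
Irgm2: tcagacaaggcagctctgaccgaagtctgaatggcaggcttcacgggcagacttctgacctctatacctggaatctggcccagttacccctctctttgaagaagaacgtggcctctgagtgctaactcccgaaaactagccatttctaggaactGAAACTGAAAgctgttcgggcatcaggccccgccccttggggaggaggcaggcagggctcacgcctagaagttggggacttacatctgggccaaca

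Antigen presentation moved the same way. Of 33 genes of MHC class I and peptide loading 30 were lower and none higher (median -1.96), and all 11 genes of MHC class II were lower (median -3.15). Class I not called were Canx, H2-Q2 and H2-T3. B2m, the light chain of class I molecules (GRCm39 chromosome 2, 121977957 to 121983594, plus strand), stood at 1560, 1780, 2340 and 1560 CPM in H2A.ZKO, 747, 480, 406, 273 and 329 CPM in H2A.Z.1KQ and 109, 137, 100 and 151 CPM in Myc mice. Its log2 fold change was -2.02 (SE 0.28, adjusted p = 3.23e-06), and against Myc it remained higher in H2A.Z.1KQ mice by 1.84 (adjusted p = 0.000251). Ciita, the master regulator of class II genes, was at 13.9, 15.2, 47.3 and 14.8 CPM and 6.44, 3.25, 3.28, 2.16 and 2.74 CPM, with the single high value in H2A.ZKO mouse 21 (log2 fold change -2.69, SE 0.33, adjusted p = 5.17e-07). H2-DMa, which helps load peptides onto class II molecules, was at 48.8, 60.4, 105 and 55.6 CPM in H2A.ZKO and 26.3, 20.7, 23.7, 15.4 and 19.6 CPM in H2A.Z.1KQ mice (log2 fold change -1.68, SE 0.18, adjusted p = 1.17e-07). Myc mice held 14.1, 17.6, 16.9 and 15.5 CPM of it, and the log2 fold change against Myc was 0.40 (adjusted p = 0.223). H2-Q and H2-T genes are near-identical copies among which counting can split reads.

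Cytokines, chemokines and complement carry signals between immune cells and tag material for removal. Of 31 chemokines and their receptors 26 were lower and none higher (median -2.26), and of 26 complement genes 20 were lower and none higher (median -1.60). Of 27 interferon and cytokine genes 19 were lower and 2 higher (median -1.48), and the share higher, 7.41%, was under the 8.72% over all genes. The 2 higher genes, named after their values were seen because they were so few, were Cntf (log2 fold change 1.35, adjusted p = 0.0145) and Il34 (0.38, adjusted p = 0.0239), a ligand that maintains microglia, which was not called without H2A.ZKO mouse 3 or 4 or H2A.Z.1KQ mouse 27, 28 or 45. Ccl7, a chemokine that attracts monocytes, was at 4.46, 8.75, 16.8 and 3.72 CPM in H2A.ZKO and 1.72, 0.589, 0.244, 0.216 and 0.197 CPM in H2A.Z.1KQ mice, against at most 0.0635 CPM in Myc mice. Ifng, the T and NK cell interferon, was at 1.46, 0.845, 7.93 and 1.77 CPM and 0.343, 0.141, 0, 0.081 and 0.0246 CPM and had no count in Myc mice. The log2 fold changes of Ccl7 and Ifng were -3.89 (SE 0.69) and -4.72 (SE 0.91), with adjusted p of 9.16e-05 and 0.000289. Tgfb1, which restrains inflammation, and Csf1, a growth factor for microglia, were lower as well, by log2 fold changes of -1.35 and -1.19 (adjusted p = 4.06e-07 and 1.96e-05). C1qa, a subunit of the first complement component and a microglial marker, stood at 719, 908, 745 and 468 CPM in H2A.ZKO and 306, 184, 188, 121 and 151 CPM in H2A.Z.1KQ mice. Its fall by 1.90 on the log2 scale (SE 0.32, adjusted p = 4.9e-05) left it above the Myc level, by 1.89 (adjusted p = 0.000809).

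**Figure D2:**
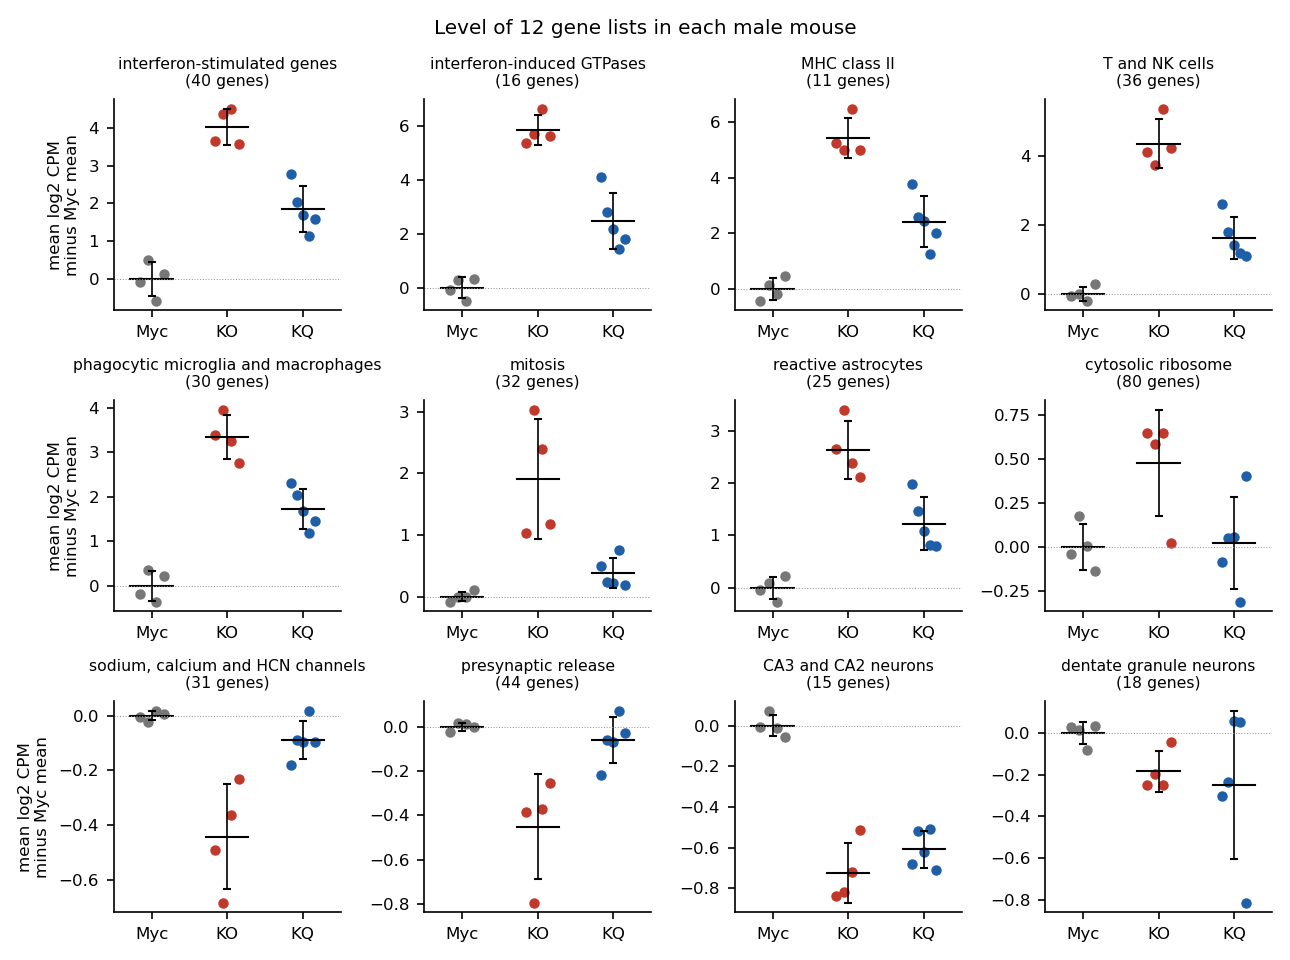
Each point is 1 male mouse (Myc grey, H2A.ZKO red, H2A.Z.1KQ blue), placed at its mean log2 CPM over the tested genes of a list minus the Myc mean, with horizontal lines for group means and bars for the SD. H2A.Z.1KQ mice lie below all H2A.ZKO mice for the 5 immune lists shown, mitosis and reactive astrocytes, above them for presynaptic release and for sodium, calcium and HCN channels, and among them for the cytosolic ribosome, CA3 and CA2 neurons and dentate granule neurons.

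Microglia are the resident phagocytes of the brain. Of 30 genes of phagocytic microglia and macrophages 29 were lower (median -1.59), and of 16 genes of homeostatic microglia 11 were lower (median -0.88), with none higher in either list. Against Myc, 21 and 9 of them were higher in H2A.Z.1KQ mice. Selplg, an adhesion ligand on microglia, was at 47.9, 71, 61.1 and 64 CPM in H2A.ZKO and 27.6, 24.8, 27.5, 29.6 and 35.2 CPM in H2A.Z.1KQ mice, and Sall1, a transcription factor of microglial identity, at 41.9, 59, 52.6 and 44.3 and 28.6, 29, 27.5, 25.9 and 30.6 CPM. Neither overlapped between the groups, and the log2 fold changes were -1.07 (SE 0.11, adjusted p = 2.54e-08) and -0.80 (SE 0.09, adjusted p = 1.16e-07). Fcgr4, an activating antibody receptor of phagocytes, changed far more, from 19.2, 31.6, 68.7 and 16.8 CPM to 7.93, 3.18, 3.42, 1.05 and 1.85 CPM (log2 fold change -3.31, SE 0.52, adjusted p = 1.95e-05). P2ry12, the purinergic receptor of homeostatic microglia, had a log2 fold change of -0.29 (adjusted p = 0.0301) that was not called with H2A.ZKO mouse 3, 4 or 42 or H2A.Z.1KQ mouse 27, 28 or 45 left out, at adjusted p of 0.0567, 0.0921, 0.129, 0.0639, 0.0899 and 0.0585.

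Markers of T and NK cells, which are scarce in healthy brain, were lower in 35 of 36 cases (median -2.84), the exception being Eomes at a log2 fold change of -0.98 (adjusted p = 0.257). Cd8a, which encodes a chain of the co-receptor of cytotoxic T cells (GRCm39 chromosome 6, 71350411 to 71356157, plus strand), was at 16.3, 13, 46.8 and 13.8 CPM in H2A.ZKO, 2.55, 1.2, 0.802, 0.756 and 0.567 CPM in H2A.Z.1KQ and 0.352, 0.349, 0.0586 and 0.178 CPM in Myc mice. H2A.ZKO mouse 21 stood highest, and no value of the groups overlapped. The log2 fold change of Cd8a, -4.28 (SE 0.63, adjusted p = 8.09e-06), was among the 12 largest falls of genes with a mean of at least 1 CPM and no overlap. Prf1, the pore-forming protein of killer cells, was at 1.32, 0.845, 5.63 and 1.34 CPM and 0.229, 0.188, 0, 0.081 and 0.0739 CPM (log2 fold change -4.29, adjusted p = 9.51e-05). The other genes of these largest falls were Cd8b1, Klrc1, Klrd1, Sh2d2a, Trgc2, Ifng, Gbp8, Ubd, Dnase1l3 and Gm5486, at log2 fold changes of -4.15 to -5.03. The size of the fall and the lack of overlap were part of the rule that picked these 12 genes, so neither is a separate result for them. The mean of 1 CPM is taken over both groups together, so it can be reached through 1 group alone. Prf1 and Ifng lay near 0 CPM in H2A.Z.1KQ mice and reached it only through the H2A.ZKO mice. The same can hold for others of the 12 genes. Trgc genes are close copies of each other. Cd3e, a subunit common to T-cell receptors, remained at 2.36, 1.06, 1.22, 0.918 and 0.592 CPM in H2A.Z.1KQ mice against at most 0.201 CPM in Myc mice (log2 fold change against Myc 3.19, adjusted p = 0.00782), whereas for Cd8a the value against Myc was 2.28 (adjusted p = 0.0825). Of 23 genes of B and plasma cells 9 were lower and none higher, with Cd79a, a signalling chain of the B-cell receptor, at 2.81, 1.96, 3.72 and 3.98 CPM and 0.61, 0.871, 0.558, 0.405 and 0.838 CPM (log2 fold change -2.23, adjusted p = 0.0023).

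Genes that carry out cell death and cell division were lower too. Of 24 executors of apoptosis, necroptosis and pyroptosis 19 were lower and none higher (median -1.20). Mlkl, which ruptures the membrane in necroptosis, was at 4.95, 10.9, 14.7 and 5.75 CPM in H2A.ZKO and 1.72, 0.895, 0.768, 0.54 and 0.32 CPM in H2A.Z.1KQ mice, with 0.302, 0.603, 0.176 and 0.33 CPM in Myc mice. Mlkl thus differed by -3.45 log2 units (SE 0.44, adjusted p = 9.4e-07), and the log2 fold changes of Gsdmd, the pore of pyroptosis, and Casp8, the initiator caspase of death receptors, were -1.96 and -1.50, with adjusted p of 1.79e-06 and 1.47e-06. Of 28 genes of the p53 response 13 were lower and 3 higher (median -0.38), and without H2A.ZKO mouse 4 the numbers were 8 and 0. Cdkn1a, the cell cycle inhibitor p21, went from 21.2, 36.2, 23.4 and 18.7 CPM to 16, 13.7, 11.7, 10.2 and 11.3 CPM (log2 fold change -0.99, adjusted p = 7.89e-05) and stayed 1.19 log2 units above Myc (adjusted p = 0.000197). Trp53 itself was at 32.4, 38.5, 34.1 and 23.7 CPM and 23.3, 23, 24.5, 19.2 and 23.1 CPM (log2 fold change -0.51, adjusted p = 0.000156). The 3 higher genes, named after their values were seen, were Sesn1, Ei24 and Tigar, at log2 fold changes of 0.28, 0.21 and 0.40. They made up 10.7% of the list, near the 8.72% over all genes. Tigar was not called without H2A.ZKO mouse 3 or 4, Ei24 without mouse 4, 28, 42 or 45, nor Sesn1 without mouse 4, 8, 21, 27, 42 or 44.

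Of 32 mitosis genes 30 were lower (median -1.95), and the others were Kif20a and Anln. Of 38 DNA replication genes 24 were lower and none higher (median -0.55). Cdk1, the kinase that drives entry into mitosis, was at 2.14, 12.5, 5.54 and 0.821 CPM in H2A.ZKO and 0.839, 0.518, 0.663, 0.567 and 0.616 CPM in H2A.Z.1KQ mice. H2A.ZKO mouse 42, at 0.821 CPM, overlapped the H2A.Z.1KQ mice, whereas mouse 4 stood far above all others. Its log2 fold change was -3.05 (SE 0.44, adjusted p = 3.97e-06), and against Myc the H2A.Z.1KQ mice differed by 1.39 (adjusted p = 0.122). Rrm2, which makes deoxynucleotides for replication, was at 5.46, 25, 10.7 and 3.59 CPM and 1.64, 1.55, 1.47, 2.43 and 1.73 CPM, the latter within 1.27 to 1.86 CPM of Myc mice except mouse 44 (log2 fold change -2.67, adjusted p = 5.57e-07). Mcm3, a subunit of the replicative helicase, went from 8.16, 15.8, 14.5 and 7.52 CPM to 5.34, 4.03, 4.05, 3.92 and 3.85 CPM (log2 fold change -1.45, adjusted p = 1.64e-06). In H2A.Z.1KQ mice no mitosis gene and 2 replication genes differed from Myc at this threshold, all of them higher. With the 5 of the 9 mice that had over 100 CPM of the choroid plexus gene Ttr left out together (H2A.ZKO 4, 21 and 42 and H2A.Z.1KQ 8 and 27), which leaves H2A.ZKO mouse 3 alone, 1 mitosis gene and 2 replication genes were called lower.

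Few histone genes and few genes of the machinery that handles H2A.Z were called. Of 61 replication-dependent and linker histones tested 4 were lower, H1f2, H2ac23, H2ac24 and H4c8, and none higher, which is below the background share of lower calls. Their median log2 fold change was nevertheless -0.35. The mean level of the list relative to Myc was 0.55 to 0.69 in H2A.ZKO and 0.15 to 0.52 in H2A.Z.1KQ mice, without overlap. H1f2, a linker histone, was at 27.9, 29.8, 26.1 and 24.8 CPM in H2A.ZKO, 23.6, 12.8, 16.6, 13.5 and 21.6 CPM in H2A.Z.1KQ and 5.86, 8.31, 7.86 and 8.7 CPM in Myc mice, so it remained 1.20 log2 units above Myc (adjusted p = 0.000197). Over H2A.ZKO its log2 fold change was -0.62 (SE 0.18, adjusted p = 0.0101). Histone genes of a class share most of their sequence, and counting can split their reads. Of 32 genes for H2A variants, remodellers, chaperones and acetyltransferases of H2A.Z, Actl6b was higher and Actl6a and Brd2 were lower, again below the background in either direction. Actl6a and Actl6b encode alternative subunits of remodelling complexes in dividing cells and in neurons, and their log2 fold changes were -0.33 (adjusted p = 0.0117) and 0.51 (adjusted p = 0.000744). Without H2A.ZKO mouse 4, Actl6a had an adjusted p of 0.0738. Brd2, a reader of acetylated histones, was at 260, 247, 281 and 290 CPM and 228, 222, 237, 260 and 218 CPM (log2 fold change -0.21, SE 0.06, adjusted p = 0.00692). Macroh2a2, another H2A variant, differed by 0.30 (95% interval 0.06 to 0.54, adjusted p = 0.0688).

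**Figure D3:**
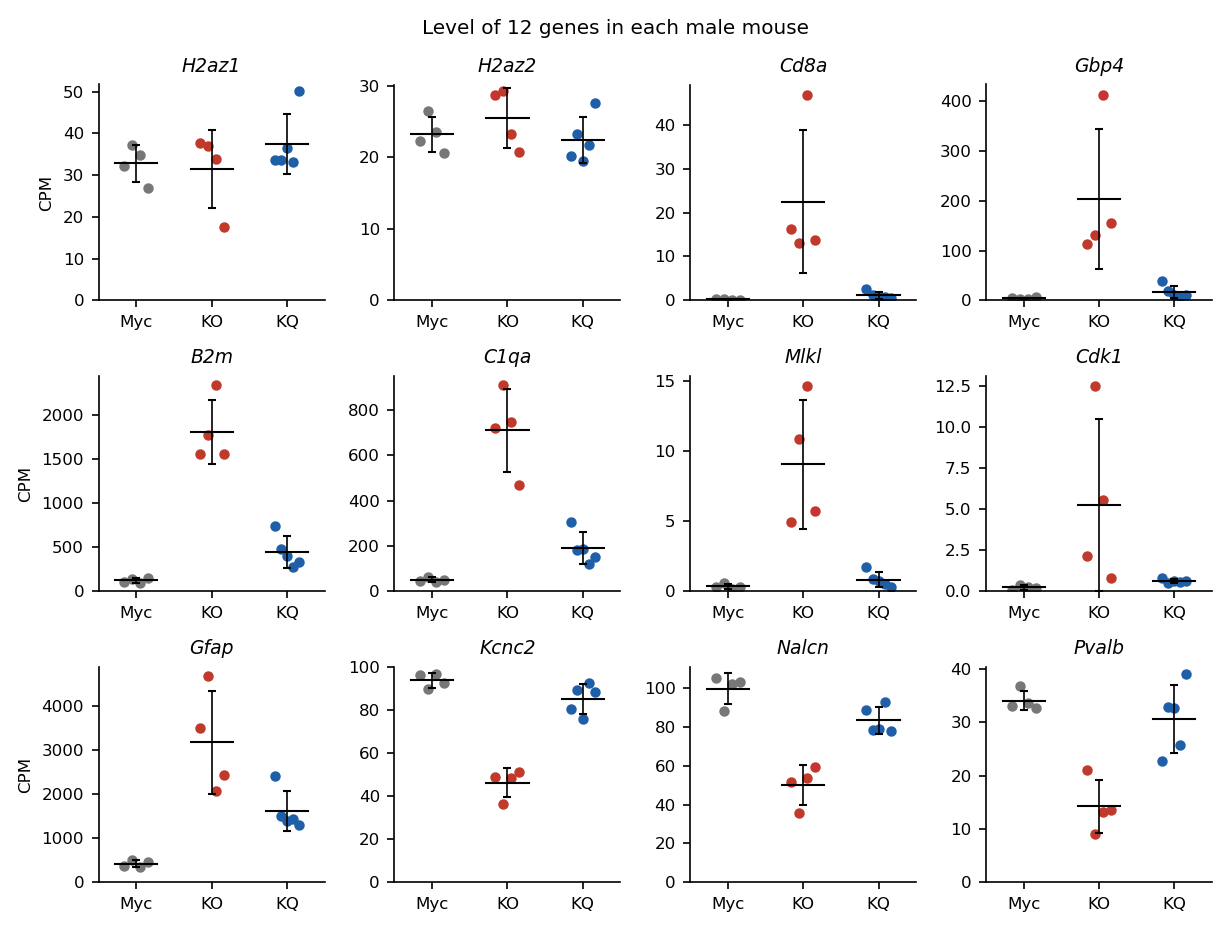
Each panel gives 1 gene in CPM on a linear axis from 0, with a point for each male Myc (grey), H2A.ZKO (red) and H2A.Z.1KQ (blue) mouse, a line for the mean and bars for the SD. H2az1 and H2az2 overlap between the groups, Cd8a, Gbp4, B2m, C1qa and Mlkl are highest in H2A.ZKO mice, and Kcnc2, Nalcn and Pvalb are lowest in them.

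Astrocytes turn reactive after injury, and of 25 genes of this state 19 were lower in H2A.Z.1KQ mice and none higher (median -1.48), or 9 without H2A.ZKO mouse 4. Cp, the ferroxidase ceruloplasmin, was at 80.4, 97.4, 77.4 and 83.9 CPM in H2A.ZKO and 34.7, 26, 23.5, 24.8 and 20 CPM in H2A.Z.1KQ mice, and Srgn, a proteoglycan of secretory granules, at 39.8, 44.2, 64.8 and 40.7 and 18.3, 13.5, 11.2, 12.7 and 11.8 CPM. Their log2 fold changes were -1.72 (SE 0.28, adjusted p = 2.57e-05) and -1.81 (SE 0.22, adjusted p = 4.7e-07). Gfap, the intermediate filament of astrocytes, overlapped between the groups, with 3500, 4670, 2070 and 2440 CPM and 2410, 1500, 1390, 1440 and 1300 CPM, and was above the 375, 516, 349 and 461 CPM of Myc mice in both. This log2 fold change of -0.98 (SE 0.33, adjusted p = 0.0331) was not called without H2A.ZKO mouse 3 or 4 or without H2A.Z.1KQ mouse 27, 28, 44 or 45, at adjusted p of 0.0728, 0.184, 0.0587, 0.0684, 0.0698 and 0.0712. Aqp4, the water channel of astrocytic endfeet, differed by -0.76 (adjusted p = 0.0828), and by -1.06 (adjusted p = 0.012) without H2A.Z.1KQ mouse 8. Of 17 genes of resting astrocytes 6 were lower (35.3%) and 1 higher (5.88%), beside 12.7% and 8.72% over all genes. The level of this list overlapped between the groups, and 2 of its genes were lower when H2A.ZKO mouse 4 was left out. The glutamate transporters split: Slc1a3 went from 1390, 1440, 1290 and 1540 CPM to 990, 761, 807, 1080 and 827 CPM (log2 fold change -0.67, adjusted p = 3.61e-05), whereas Slc1a2 was at 2220, 2210, 1870 and 2290 and 2930, 2720, 2460, 3140 and 2710 CPM (log2 fold change 0.38, adjusted p = 0.00313).

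Vessels, matrix and myelin showed smaller shares. Of 43 genes of collagens and matrix 17 were lower and 1, the laminin Lamb1, higher (log2 fold change 0.48, adjusted p = 0.00268), and without H2A.ZKO mouse 4 or H2A.Z.1KQ mouse 28 the lower genes numbered 7 and 10. Bgn, the proteoglycan biglycan, was at 48, 60.1, 31 and 65.6 CPM in H2A.ZKO and 32.4, 16.5, 14.8, 24.4 and 12.9 CPM in H2A.Z.1KQ mice, with an overlap at 31.0 and 32.4 CPM (log2 fold change -1.34, adjusted p = 0.00275). Of 22 endothelial and mural cell genes 7 were lower and none higher, or 4 without H2A.ZKO mouse 4. Ly6a, a surface protein that interferon also induces, was at 86.5, 96.7, 173 and 62.4 and 29.7, 22.9, 21.8, 13.7 and 29.5 CPM (log2 fold change -2.16, adjusted p = 1.51e-06), and Vwf, the clotting factor of endothelium, at 26.7, 33.2, 18.4 and 28.2 and 11.9, 9.66, 11.6, 12.1 and 13.6 CPM (log2 fold change -1.18, adjusted p = 0.000233). Cldn5, the tight junction protein that defines brain endothelium, differed by -0.38 (95% interval -0.81 to 0.04, adjusted p = 0.213), and by -0.57 (adjusted p = 0.0395) without H2A.ZKO mouse 42. Among 20 oligodendrocyte genes, at a share under the background of 12.7%, Trf, which encodes transferrin, was lower (log2 fold change -0.72, adjusted p = 0.0166), though not without H2A.ZKO mouse 4 (0.134) or H2A.Z.1KQ mouse 44 (0.0514). Among 10 genes of oligodendrocyte precursors Neu4 and Bmp4 were lower, at log2 fold changes of -0.41 and -0.83 (adjusted p = 0.0469 and 0.0342). They made up 20% of the list, beside 12.7% over all genes. Neu4 was not called without mouse 4, 27, 28 or 44, nor Bmp4 without mouse 3, 4, 8, 27, 44 or 45, and the list held 3 lower genes without H2A.ZKO mouse 21. Mbp, the myelin basic protein, differed by 0.20 (95% interval -0.13 to 0.54, adjusted p = 0.44).

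Of 80 proteins of the cytosolic ribosome 54 were lower and none higher in H2A.Z.1KQ mice, with a median log2 fold change of -0.46. None of the 80 differed from Myc in H2A.Z.1KQ mice, and 55 were higher than Myc in H2A.ZKO mice. Rpl5 stood at 55.2, 61, 63.1 and 49.1 CPM in H2A.ZKO, 37.6, 38.4, 38.4, 36 and 40.7 CPM in H2A.Z.1KQ and 33.1, 36.8, 35.7 and 36.1 CPM in Myc mice (log2 fold change -0.58, SE 0.09, adjusted p = 7.08e-06). Rpl10 and Fau showed the same order, at log2 fold changes of -0.62 and -0.77 (adjusted p = 4.02e-05 and 9.47e-05). The list as a whole was uneven between mice, since its mean level relative to Myc was 0.65, 0.59, 0.65 and 0.02 in H2A.ZKO and -0.09, 0.05, 0.06, -0.31 and 0.41 in H2A.Z.1KQ mice, so that H2A.ZKO mouse 42 lay among the H2A.Z.1KQ mice. The number called lower was 24 when only the mice of these groups entered the fit. Of 66 genes of the respiratory chain Ndufb3, Ndufs1 and Sdha were higher and none lower, a share under the background of 8.72%, and without H2A.ZKO mouse 4 Ndufs1 and Sdha were not called, nor Sdha without H2A.Z.1KQ mouse 8, 28, 44 or 45. The 13 protein-coding genes of the mitochondrial genome are not among the rows analysed here.

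Neuronal genes moved up in a smaller range. Voltage-gated channels set how neurons fire, and of 31 sodium, calcium and HCN channel genes 24 were higher and 1, the muscle calcium channel Cacna1s, lower (median 0.41), while of 61 potassium channels 22 were higher and 3 lower (median 0.32). Nalcn, the sodium leak channel that sets resting excitability, was at 51.8, 35.5, 53.6 and 59.4 CPM in H2A.ZKO, 88.6, 78.4, 78.7, 92.9 and 77.6 CPM in H2A.Z.1KQ and 105, 87.8, 102 and 103 CPM in Myc mice. No H2A.Z.1KQ mouse overlapped H2A.ZKO, and the log2 fold change was 0.73 (SE 0.12, adjusted p = 1.08e-05). Its partner Unc80 was at 172, 132, 175 and 224 CPM and 249, 272, 225, 316 and 233 CPM (log2 fold change 0.56, adjusted p = 0.00211). Kcnc2 and Kcnc1 encode the fast potassium channels Kv3.2 and Kv3.1 that let interneurons fire at high rates. Kcnc2 stood at 48.8, 36.2, 48.6 and 51.3 CPM in H2A.ZKO and 80.6, 89.3, 75.7, 92.4 and 88.4 CPM in H2A.Z.1KQ mice, and Kcnc1 at 86.9, 61.3, 73.5 and 88 and 108, 120, 116, 116 and 121 CPM. The log2 fold changes were 0.88 (SE 0.11, adjusted p = 4.06e-07) and 0.58 (SE 0.11, adjusted p = 0.000109). Kcnn1, a calcium-activated potassium channel, rose by 1.02 (adjusted p = 1.76e-06) and Cacna2d2, an auxiliary calcium channel subunit, by 0.82 (adjusted p = 0.00155). The 3 lower potassium channels, named after their values were seen, were Kcnj10, Kcnj16 and Kcnn4, at log2 fold changes of -0.51, -0.61 and -2.01, of which Kcnj10 and Kcnj16 are known from astrocytes and Kcnn4 from immune cells. Without H2A.ZKO mouse 4 the higher genes numbered 8 and 9 in these lists, and without mouse 3 the sodium, calcium and HCN channels numbered 13.

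Synaptic genes followed. Of 44 genes of presynaptic release 19 were higher (median 0.34), of 37 of the postsynaptic density 14 (median 0.29), of 38 for glutamate receptors 10 (median 0.28) and of 17 for GABA receptors 9 (median 0.28), with none lower. The shares higher were 43.2%, 37.8%, 26.3% and 52.9%, beside 8.72% over all genes. The list level separated the groups for presynaptic release and overlapped between them for the other lists. With only the compared groups in the fit, 2 postsynaptic genes were called higher. Each of these counts of higher genes also leaned on single mice. Without H2A.ZKO mouse 4 they were 8, 2, 2 and 0, without mouse 3 the last 3 were 7, 6 and 5, and without H2A.Z.1KQ mouse 44 they were 12, 6, 7 and 4. The glutamate receptors numbered 18 without H2A.ZKO mouse 42, the postsynaptic genes 9 without H2A.Z.1KQ mouse 28 and the GABA receptors 5 without H2A.ZKO mouse 21. Snap25, a core protein of vesicle fusion, was at 2070, 1440, 2120 and 2210 CPM in H2A.ZKO, 2390, 3000, 3030, 3070 and 2690 CPM in H2A.Z.1KQ and 3210, 3280, 3040 and 3310 CPM in Myc mice. The groups did not overlap, although mouse 4 lay far below the other H2A.ZKO mice (log2 fold change 0.53, SE 0.14, adjusted p = 0.0045). Pclo, a scaffold of the active zone, went from 141, 125, 182 and 246 CPM to 288, 267, 247, 365 and 232 CPM with an overlap (log2 fold change 0.69, adjusted p = 0.00198), and Vamp1, a vesicle protein, from 73.2, 47.4, 65.2 and 54.3 to 77.8, 112, 102, 86.5 and 137 CPM with no overlap (log2 fold change 0.78, adjusted p = 0.000961). On the receiving side, Cacng2, which carries AMPA receptors to the synapse, rose by 0.58 (adjusted p = 0.000772) and Lrrtm1, a synaptic adhesion protein, by 0.47 (adjusted p = 0.000444). Gabra3, a GABA receptor subunit, was at 35.4, 20.7, 21 and 39.9 CPM and 48.5, 53, 44.5, 45.4 and 58 CPM (log2 fold change 0.78, adjusted p = 0.0133), and without H2A.ZKO mouse 4 or 21 its adjusted p was 0.0798 or 0.0636.

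**Figure D4:**
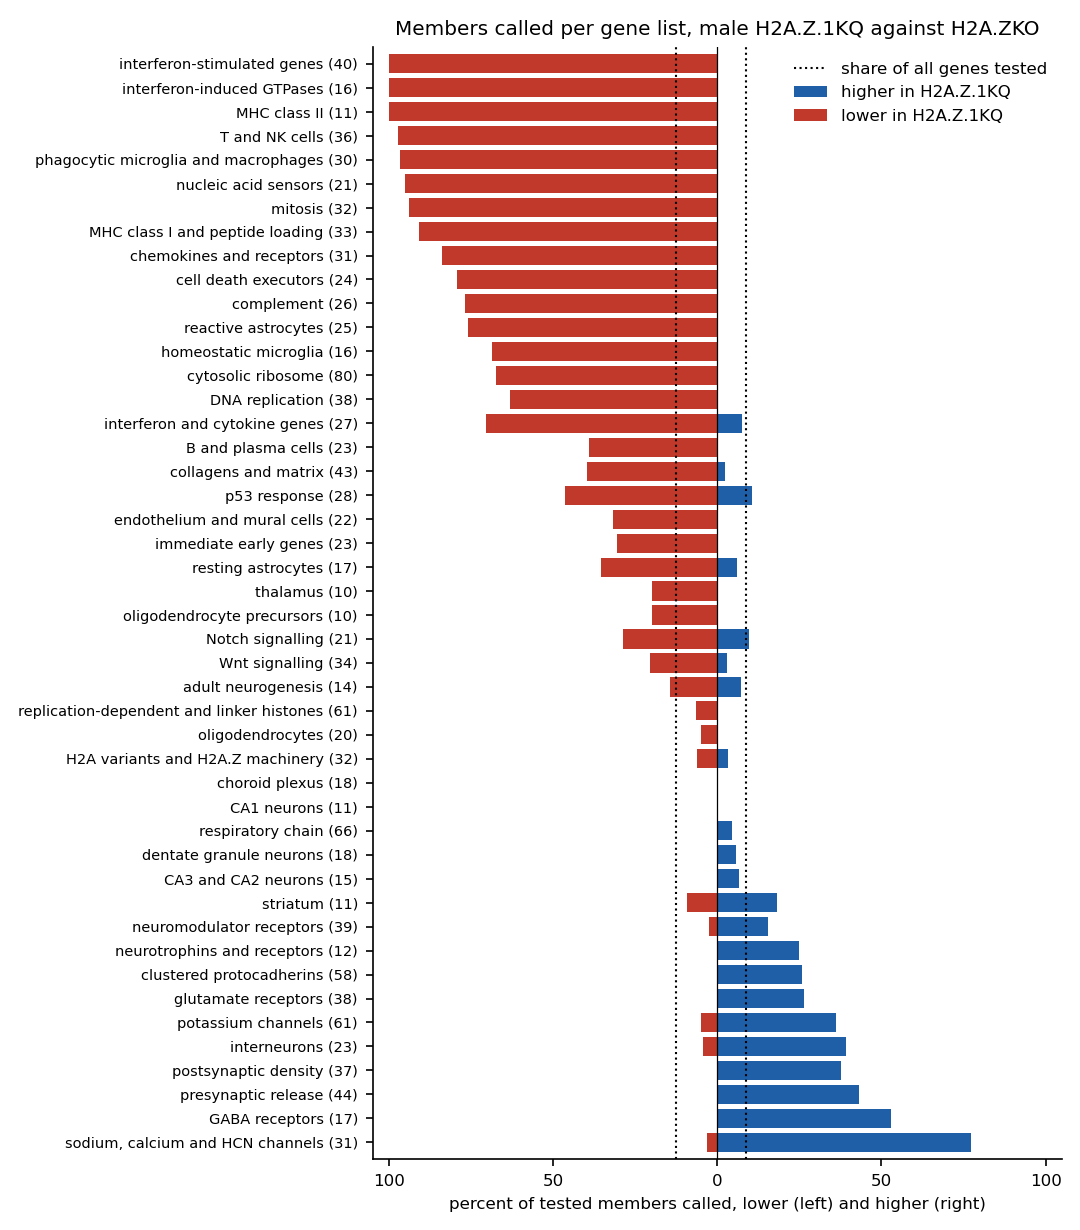
Bars give the percent of the tested genes of each list that were called lower (red, to the left) or higher (blue, to the right) in H2A.Z.1KQ against H2A.ZKO mice, with the number tested in brackets, for the lists with at least 10 genes tested, and dotted lines mark the shares over all genes, 12.7% and 8.72%. Interferon-stimulated genes, interferon-induced GTPases and MHC class II reach 100% on the left, the other immune lists range from 39.1% (B and plasma cells) to 97.2% (T and NK cells), and sodium, calcium and HCN channels reach furthest to the right with 24 of 31 genes.

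Interneurons and adhesion molecules added to the higher genes, and receptors for modulators did so less. The shares higher were 39.1% of interneuron, 15.4% of neuromodulator receptor and 25.9% of protocadherin genes, beside 8.72% over all genes. The level of each of these lists overlapped between the groups. Of 23 interneuron genes 9 were higher and 1, the stress peptide gene Crh, lower (median 0.33), with 5 higher without H2A.ZKO mouse 4 and none lower without mouse 3. Pvalb, the calcium buffer of fast-spiking interneurons, was at 21, 9.08, 13.3 and 13.6 CPM in H2A.ZKO, 22.8, 32.9, 32.8, 25.7 and 39 CPM in H2A.Z.1KQ and 33.1, 36.8, 33.7 and 32.8 CPM in Myc mice. All H2A.Z.1KQ values exceeded those of H2A.ZKO mice, and the log2 fold change was 1.11 (SE 0.21, adjusted p = 0.000161). Gad1, which makes GABA, went from 226, 178, 211 and 209 CPM to 272, 299, 299, 251 and 325 CPM (log2 fold change 0.49, adjusted p = 0.00115). Of 39 receptors for neuromodulators 6 were higher and 1 lower (median 0.10), and 3 were higher without H2A.ZKO mouse 4. Chrnb2, a nicotinic acetylcholine receptor subunit, was at 21.7, 20.1, 22.7 and 23.8 CPM and 37.7, 36.6, 36.4, 38.6 and 45 CPM, which was an increase of 0.82 on the log2 scale (SE 0.10, adjusted p = 6.61e-07). Kiss1r, the kisspeptin receptor, was at 2.87, 2.1, 1.78 and 1.99 CPM in H2A.ZKO and 3.81, 4.12, 4.05, 3.56 and 5.79 CPM in H2A.Z.1KQ mice (log2 fold change 0.97, SE 0.16, adjusted p = 2.28e-05). Of 58 clustered protocadherins, adhesion proteins that give neurons distinct surfaces, 15 were higher and none lower (median 0.35), with 7 without H2A.ZKO mouse 4, 28 without mouse 42 and 8 without H2A.Z.1KQ mouse 44. Pcdhga2 was at 4.27, 4.5, 4.56 and 4.93 CPM and 7.05, 6.97, 8.65, 10.3 and 7.44 CPM (log2 fold change 0.83, adjusted p = 6e-06), and genes of a protocadherin cluster share their last exons, which counting cannot assign.

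Markers of the principal cells of the hippocampus hardly differed, with 1 of 18 dentate granule genes (Gsg1l), none of 11 CA1 genes and 1 of 15 CA3 and CA2 genes (Grik4) higher and none lower, all under the background of 8.72%. Gsg1l was not called without H2A.ZKO mouse 4 or 21. Against Myc, 11 of the CA3 and CA2 genes were lower in H2A.ZKO mice and 5 in H2A.Z.1KQ mice. Prox1, which defines granule cells, was at 135, 128, 130 and 139 CPM in H2A.ZKO and 160, 122, 142, 188 and 77 CPM in H2A.Z.1KQ mice, with the lowest and the highest value both in the latter (log2 fold change 0.05, 95% interval -0.35 to 0.45, adjusted p = 0.907). Fibcd1, a marker of CA1, overlapped between the groups, at 41.2, 37.8, 62.7 and 60.2 CPM and 46.2, 41.4, 72.4, 67.4 and 89 CPM, and most values lay below the 92.7, 123, 97 and 84.1 CPM of Myc mice (log2 fold change 0.33, 95% interval -0.24 to 0.89, adjusted p = 0.462). Grik4, a kainate receptor subunit of CA3, had a log2 fold change of 0.50 (adjusted p = 0.0202) that was not called without H2A.ZKO mouse 3, 4 or 21 or H2A.Z.1KQ mouse 8 or 44, at adjusted p of 0.0619, 0.0843, 0.068, 0.0655 and 0.0807. Prox1, Fibcd1, Snap25 and Gfap had counts in each of the 9 mice, as the labelled tissue has. Of 14 genes of adult neurogenesis Dcx, a marker of young neurons, was higher (log2 fold change 0.71, adjusted p = 0.0159), and Nes and Sox2, which mark neural stem cells and astrocytes, were lower (-0.61 and -0.34, adjusted p = 0.000474 and 0.012). These shares of 7.14% and 14.3% are near those over all genes, 8.72% and 12.7%. Dcx was not called without H2A.ZKO mouse 4 or 21 or H2A.Z.1KQ mouse 44, and Sox2 was not without H2A.ZKO mouse 4. The higher genes numbered 2 without H2A.ZKO mouse 42 or H2A.Z.1KQ mouse 45 and the lower genes 3 without H2A.ZKO mouse 21 or H2A.Z.1KQ mouse 44.

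Markers of tissue next to the hippocampus varied in level between the samples. Ttr, which defines choroid plexus, was at 24.5, 302, 199 and 553 CPM in H2A.ZKO and 178, 183, 17.2, 25.7 and 63.6 CPM in H2A.Z.1KQ mice (log2 fold change -1.53, SE 1.37, adjusted p = 0.491). None of 18 choroid plexus genes was called, at a median of -1.39, and their summed level was 379.7 to 1431 CPM in H2A.ZKO and 251.5 to 551.5 CPM in H2A.Z.1KQ mice. Myc mice spanned 250.2 to 1062 CPM. Of 10 thalamus genes Prkcd and Rgs16 were lower (20%, beside 12.7% over all genes). The summed level of the thalamus genes was 148 to 172.4 CPM in H2A.ZKO, 89.9 to 157.1 CPM in H2A.Z.1KQ and 122.3 to 212.2 CPM in Myc mice. Of 11 striatum genes Ppp1r1b and Pde10a were higher and Adora2a lower, with summed levels of 151.5 to 303 CPM in H2A.ZKO and 152 to 483.5 CPM in H2A.Z.1KQ mice, and Pde10a (adjusted p = 0.0496) was not called without mouse 3, 4, 8, 21, 27 or 44, while the higher genes numbered 3 without mouse 42. The striatum shares were 18.2% higher and 9.09% lower, beside 8.72% and 12.7% over all genes. Rgs16 was not called without H2A.ZKO mouse 21 or H2A.Z.1KQ mouse 44. None of 5 blood genes was called, and no choroid plexus, thalamus or striatum marker that defines its tissue was at 0 in all 9 mice. With the 5 mice that had over 100 CPM of Ttr left out, the interferon-stimulated genes, GTPases and MHC class II genes were still lower in 40, 16 and 11 cases and the T and NK genes in 30, whereas the counts of most other lists fell by more than 1.5 times. Higher channel genes then numbered 4 (sodium, calcium and HCN) and 3 (potassium), higher presynaptic genes 3, and lower phagocyte, reactive astrocyte and ribosomal genes 17, 7 and 21. That fit has a single H2A.ZKO mouse, whose spread is taken from the other groups. The part of neighbouring tissue in the other results was not tested.

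Signalling lists moved in part. Immediate early genes respond within minutes to activity, and 7 of 23 were lower and none higher, with 4 lower and 1 higher without H2A.ZKO mouse 42 and 3 lower without H2A.Z.1KQ mouse 44. Nptx2, a secreted protein that gathers AMPA receptors, was at 50, 49.2, 59.8 and 44.3 CPM in H2A.ZKO and 42.1, 20.7, 20.3, 31.6 and 15.9 CPM in H2A.Z.1KQ mice (log2 fold change -0.96, adjusted p = 0.00604), and Gadd45b, a stress and activity gene, at 13.7, 19, 15.9 and 11 and 10.5, 10.1, 9.21, 7.45 and 10.6 CPM (log2 fold change -0.64, adjusted p = 0.000471). Arc, which regulates AMPA receptor trafficking, overlapped widely, at 46.7, 54.1, 85.3 and 170 CPM and 54.4, 82.2, 123, 47.5 and 72.1 CPM (log2 fold change -0.23, 95% interval -0.98 to 0.52, adjusted p = 0.731). Th, the rate-limiting enzyme of dopamine synthesis, Fkbp5, a glucocorticoid-induced chaperone, and Fos, a transcription factor, are also named by the study and had log2 fold changes of 0.39, -0.02 and -0.94 (adjusted p = 0.585, 0.929 and 0.0221), and Fos was not called without H2A.ZKO mouse 4 or 42 or H2A.Z.1KQ mouse 44 or 45. Of 34 Wnt genes 7 were lower and 1, Wnt10a, higher (median -0.22), and Wnt10a was not called without H2A.ZKO mouse 4, 21 or 42 or H2A.Z.1KQ mouse 8, 27 or 45. Sfrp1 and Dkk2, secreted inhibitors of Wnt signalling, fell by 1.46 and 1.23 on the log2 scale (adjusted p = 0.000106 and 0.00218), and Lrp5, a Wnt co-receptor, fell by 0.80 (adjusted p = 6.78e-05). Dkk2 ranged from 1.69 to 3.9 CPM in H2A.ZKO and from 0.838 to 1.57 CPM in H2A.Z.1KQ mice, which did not overlap. Of 21 Notch genes 6 were lower, or 3 without H2A.ZKO mouse 4, and Dner and Hes5 were higher (median -0.08). The shares called higher, 2.94% of Wnt and 9.52% of Notch genes, were below or near the 8.72% over all genes. The higher Notch genes numbered 1 without H2A.ZKO mouse 4 or H2A.Z.1KQ mouse 27 or 45, and 4 without H2A.Z.1KQ mouse 8, and Hes5 lost its call in the former 3 cases. Rbpj, the DNA-binding factor of the pathway, went from 58.6, 66.5, 77.5 and 58.3 CPM to 41.4, 40.1, 34.9, 38.9 and 33.9 CPM (log2 fold change -0.79, SE 0.11, adjusted p = 1.72e-06), and the glycosyltransferases Lfng and Mfng that tune Notch receptors changed by -0.70 and -1.08 (adjusted p = 5.4e-06 and 1.79e-05). Mfng is also expressed in immune cells, whose markers fell in the same mice, and their part in its value was not tested. Neurotrophin genes were higher in 3 of 12 cases, Ntrk3 and Sort1 among them (median 0.17), and in 1 without H2A.ZKO mouse 3 or 4, and Ntrk3 was not called without mouse 4.

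The single clearest difference by its p was that of Wdr17, a WD-repeat gene on chromosome 8 of GRCm39 (55081860 to 55340219, minus strand). It stood at 10.7, 9.92, 11.2 and 11.4 CPM in H2A.ZKO, 28.1, 26.7, 29.9, 30.4 and 28.4 CPM in H2A.Z.1KQ and 34.6, 31.2, 36.2 and 33.9 CPM in Myc mice, so that H2A.Z.1KQ mice were tightly grouped just under the Myc level. The log2 fold change was 1.41 (SE 0.09, adjusted p = 3.47e-13), and against Myc it was -0.24 (adjusted p = 0.105). Plaat1, a phospholipid-modifying enzyme, rose from 6.03, 5.83, 5.19 and 4.88 CPM to 11.8, 13.1, 13.5, 12.9 and 14.4 CPM (log2 fold change 1.26, adjusted p = 5.31e-08) and stayed under the 19.2, 18.3, 22.5 and 16.5 CPM of Myc mice (log2 fold change against Myc -0.54, adjusted p = 0.00514). Akr1c18, which breaks down progesterone, was at 0.514, 0.654, 0.281 and 0.389 CPM in H2A.ZKO and 1.49, 2.47, 2.44, 1.84 and 3.06 CPM in H2A.Z.1KQ mice, and Epyc, a matrix proteoglycan, at 0.189, 0.382, 0.304 and 0.907 and 2.67, 1.86, 1.57, 3.7 and 2.74 CPM. Both were among the 12 largest rises by the same rule, at 2.29 and 2.56 log2 units (SE 0.34 and 0.32), and had adjusted p of 4.76e-06 and 4.7e-07. Lrrc6, which helps assemble motile cilia, was also among them, at 2.08, 2.1, 1.89 and 1.77 CPM and 8.69, 6.31, 4.74, 7.67 and 5.37 CPM (log2 fold change 1.74, adjusted p = 6.36e-08). Further members were Smim18, Klk10, the non-coding 6530403H02Rik and the predicted genes Gm10754, Gm32793, Gm41069 and Gm32679, at log2 fold changes of 1.74 to 2.91. As for the falls, size and lack of overlap were part of the rule that picked these genes. The mean of 1 CPM could also be reached through the H2A.Z.1KQ mice alone. Akr1c18 and Epyc, for example, stayed under 1 CPM in every H2A.ZKO mouse.

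Dach2 rose most of these 12 and stood apart from Myc as well. Dach2, a transcriptional co-repressor gene on chromosome X of GRCm39 (112207186 to 112746083, plus strand), was at 1.05, 0.981, 0.257 and 0.951 CPM in H2A.ZKO and 1.26, 0.444, 0.704 and 0.964 CPM in Myc mice, and at 19.2, 5.25, 5.72, 11.8 and 8.55 CPM in H2A.Z.1KQ mice. Its log2 fold change was 3.65 (SE 0.49, adjusted p = 2.32e-06) over H2A.ZKO and 3.56 (adjusted p = 0.000102) over Myc, whereas H2A.ZKO and Myc differed by -0.10 (adjusted p = 0.918). The other replacement groups held it as well, at 7.97, 12.5, 14, 3.6 and 4.15 CPM in H2A.Z.1WT and 12.2, 4.71, 7.32 and 7.55 CPM in H2A.Z.1KA males. Klk7, a secreted protease, showed the same order with 0.46, 0.682, 0.725 and 0.259 CPM in H2A.ZKO, 0.804, 0.666, 0.792 and 0.609 CPM in Myc and 3.97, 2.68, 1.85, 2.16 and 2.76 CPM in H2A.Z.1KQ mice. Klk7 rose by 2.29 log2 units (SE 0.44, adjusted p = 0.000164) over H2A.ZKO and 1.90 (adjusted p = 0.00497) over Myc.

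**Figure D5:**
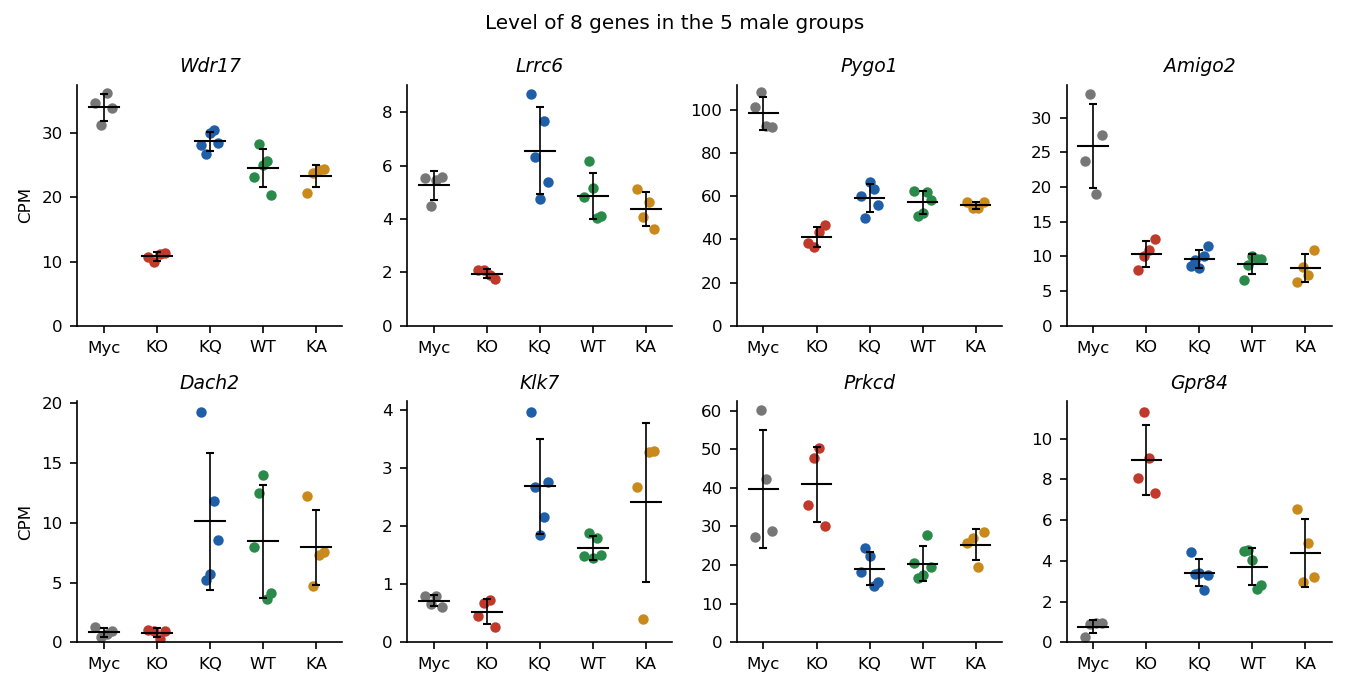
Each panel gives 1 gene in CPM on a linear axis from 0, with a point for each male mouse of the Myc, H2A.ZKO, H2A.Z.1KQ, H2A.Z.1WT and H2A.Z.1KA groups, a line for the mean and bars for the SD. Wdr17 and Lrrc6 are low in H2A.ZKO mice alone, Amigo2 is low in all groups but Myc, Dach2 and Klk7 are high only where H2A.Z.1 was put back (1 H2A.Z.1KA mouse excepted for Klk7), and Gpr84 is lowered from H2A.ZKO but above Myc.

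Some genes stayed away from the Myc level. Amigo2, an adhesion protein of CA2 and CA3 neurons, was at 8.08, 10, 10.9 and 12.5 CPM in H2A.ZKO and 8.58, 9.42, 8.37, 10.1 and 11.5 CPM in H2A.Z.1KQ against 23.7, 33.4, 19 and 27.5 CPM in Myc mice. H2A.Z.1KQ differed from Myc by -1.43 (adjusted p = 0.000102) and from H2A.ZKO by -0.11 (95% interval -0.52 to 0.30, adjusted p = 0.768). Rabepk, which binds the trafficking protein Rab9, had the same order, with log2 fold changes of -0.66 against Myc (adjusted p = 0.000102) and 0.07 against H2A.ZKO (95% interval -0.12 to 0.27, adjusted p = 0.663). Pygo1, a co-activator of Wnt signalling, was intermediate, at 38.4, 36.6, 43.3 and 46.7 CPM in H2A.ZKO, 59.9, 49.7, 66.6, 63.1 and 55.8 CPM in H2A.Z.1KQ and 101, 108, 92.2 and 92 CPM in Myc mice, and differed from both (log2 fold change 0.52 and adjusted p = 3.99e-05 over H2A.ZKO, -0.74 and 1.13e-05 over Myc). Among immune genes, Lgals3bp, a secreted glycoprotein, went from 271, 431, 304 and 311 CPM to 137, 81.2, 81.7, 63.7 and 67.3 CPM against 16.2, 21.4, 10.3 and 19.3 CPM in Myc mice, and Gpr84, a fatty acid receptor of activated microglia, from 8.08, 11.3, 9.07 and 7.35 CPM to 4.46, 3.34, 3.42, 2.59 and 3.3 CPM against 0.276, 0.889, 0.968 and 0.938 CPM. They remained 2.35 and 2.16 log2 units above Myc (adjusted p = 6.33e-05 and 4.21e-05). Prkcd, a protein kinase C with high levels in thalamus, was lower in H2A.Z.1KQ mice than in either other group, at 18.3, 24.5, 22.4, 14.6 and 15.7 CPM against 35.6, 47.7, 50.2 and 30 CPM in H2A.ZKO and 27.3, 60.2, 42.4 and 28.9 CPM in Myc mice. Its log2 fold changes were -1.10 (adjusted p = 0.000825) and -1.05 (adjusted p = 0.00591). The level of the thalamus list relative to Myc was -0.573, 0.135, -0.146, -0.401 and 0.178 in H2A.Z.1KQ mice. In H2A.ZKO mice it was 0.1, -0.066, 0.324 and 0.146. The part of dissection was not tested.

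H2A.Z.1KQ males were compared directly with males given the other forms of H2A.Z.1, which leaves out the H2A.ZKO mice. No gene was called against H2A.Z.1WT (0% of those tested) or against H2A.Z.1KA (0%) by edgeR, at smallest adjusted p of 0.653 and 0.121, with 1159 and 2993 genes at an unadjusted p under 0.05. DESeq2 called 8 genes higher and 2 lower against H2A.Z.1WT, 9 of which are immunoglobulin variable genes and the other Rbm11, and 18 higher and 2 lower against H2A.Z.1KA. The latter included the immunoglobulin gene Igkv4-72, but also Zfp738, Klf7, Gria4 and Grik1, at log2 fold changes of 0.43, 0.40, 0.52 and 0.58. Inka1 was lower, at -0.73. Without H2A.Z.1KQ mouse 45 edgeR called Lrrc19, Zfp738, Klf7 and Uprt higher and Ipo13 lower than in H2A.Z.1KA mice, all at an adjusted p of 0.0487. Zfp738 and Klf7 were thus called by both methods, by edgeR only without that mouse. For B2m the log2 fold change was 0.06 against H2A.Z.1WT (95% interval -0.47 to 0.59) and -0.37 against H2A.Z.1KA (-0.93 to 0.18), and for Nalcn 0.18 (-0.03 to 0.40) and 0.35 (0.11 to 0.58), with adjusted p of 1 and 0.646 for B2m and 1 and 0.361 for Nalcn. Kcnc2 stood at 80.6, 76.1, 73.7, 75.8 and 75.3 CPM in H2A.Z.1WT and 59.7, 74.7, 56.6 and 63.1 CPM in H2A.Z.1KA mice, for log2 fold changes of 0.16 (-0.04 to 0.36, adjusted p = 1) and 0.42 (0.21 to 0.64, adjusted p = 0.326). Kiss1r, Kcnc1, Dkk2 and Mfng, which the study names, differed from H2A.Z.1KA by 0.31, 0.17, -0.23 and -0.69, with adjusted p of 0.479, 0.59, 0.82 and 0.326. A p over the threshold does not show that these forms act alike.

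The change from H2A.ZKO to H2A.Z.1KQ was also compared between males and females, as the difference of the differences in the same fit. No gene was called (0% of those tested, smallest adjusted p of 1), with 769 at an unadjusted p under 0.05, and DESeq2 called 5 genes higher and 1 lower, which were all immunoglobulin variable genes (Ighv9-1, Ighv1-39, Ighv1-75, Igkv4-86 and Igkv14-100 higher, Ighv10-1 lower). For Wdr17 the male change exceeded the female one by 0.20 (95% interval -0.07 to 0.48), for Kcnc2 by 0.26 (-0.06 to 0.59) and for Dach2 by 0.35 (-1.02 to 1.72). For B2m and Cd8a it was -0.53 (-1.37 to 0.32) and -1.18 (-3.02 to 0.65) on the log2 scale. With 3 to 5 mice per group these intervals span differences of over 1 log2 unit for the immune genes, and a p over the threshold does not show that the sexes respond alike.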

How the data were processed

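Hippocampal RNA of 40 mice in 10 groups (22 males, 18 females, 3 to 5 per group) had been sequenced by the authors. According to the study's methods and the submitters' processing notes, the authors aligned reads to GRCm39 with Rsubread, checked quality with FastQC 0.11.9, counted reads per gene with featureCounts and tested genes with DESeq2 1.38.3. The deposited values are raw counts per gene, 1 column per mouse, with 40853 genes and no normalization. Each column was matched to its mouse by its title, and no column belonged to another sample. The strand setting of the counting and the treatment of reads that match several genes are not given in the sources used here, so values of close gene copies and overlapping genes are uncertain.

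Genes with a summed count of at least 20 over the 40 mice were kept (28449). edgeR 4.0.16 in R 4.3.3 (with limma 3.58.1) fitted all mice with 1 term per group, TMM scaling and robust quasi-likelihood dispersion, and the contrast of interest was tested with glmQLFTest with Benjamini-Hochberg adjustment over all genes tested, 2-sided, at 0.05. Intervals are 95% intervals from the same fit. List levels are means of log2 CPM with a prior count of 2. Alternatives were the Wald test of DESeq2 1.42.0, edgeR with the size factors of DESeq2, other filters on low counts, robust estimation off, the range of the mouse number as a term, a fit of the compared groups alone, a fold threshold of 1 log2 unit, and leaving out each mouse in turn. Leaving out 3 sets of mice together was added after seeing the data. The scripts were tested on simulated counts. Between 24342921 and 45982772 counts per mouse limit the precision of low genes, and intervals cover the spread between mice.

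Named genes are, per direction, the 12 largest changes among called genes with a mean of at least 1 CPM and no overlap between groups; up to 4 members with the smallest p in each of 48 gene lists; genes the study names; the 3 smallest p per direction in other comparisons with calls; and defining cell markers, from which the text gives a selection. Members behind a count of 5 or fewer (such as Cntf, Il34, Sesn1, Ei24, Tigar, Kcnj10, Kcnj16, Kcnn4, Crh, Wnt10a and Hes5) and members that were exceptions in a list were named after their values were seen, as were the genes called only by DESeq2 or without 1 mouse. A few members are not reported here. The members and the lists were chosen with earlier results of these data known. Promoter and coding sequences were read from GRCm39 with GENCODE vM39 transcripts.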

Additional observations from a re-analysis of the deposited data

Results flagged for a closer look

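Each group's values were searched for a mouse far from the others of its group (Dixon's test at the 95% level), for 150 genes and 47 list levels in both groups. Of 394 sets of values 20 were found (5.08%), against about 5% by chance.

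Among H2A.ZKO mice, mouse 21 was highest for Trgc2 (9.82 CPM) and Ciita (47.3 CPM) and lowest for Dach2 (0.257 CPM). Mouse 4 was lowest for Kcnc2 (36.2 CPM) and Snap25 (1440 CPM) and highest for Neu4 (17.8 CPM) and Nes (28.1 CPM). Mouse 42 was highest for Grik4 (33.7 CPM) and Kcnj16 (34.7 CPM), and lowest for H2az1 (17.7 CPM) and for the level of the cytosolic ribosome list (0.022, mean log2 CPM minus the Myc mean).

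Among H2A.Z.1KQ mice, mouse 8 was highest for Mcm3 (5.34 CPM) and Gfap (2410 CPM) and lowest for Crh (1.22 CPM). Mouse 44 was lowest for Trp53 (19.2 CPM) and highest for the level of the glutamate receptor list (0.087). Mouse 45 was highest for H2az1 (50.1 CPM), Macroh2a2 (11.3 CPM), Chrnb2 (45 CPM) and the level of the list of endothelial and mural cells (0.428).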

How the results depend on the processing

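The number of genes higher in H2A.Z.1KQ than in H2A.ZKO mice was 2810 by DESeq2, 1025 with only these groups in the fit, 562 with the 5 mice of over 100 CPM of Ttr left out, 292 past a log2 fold change of 1, and 1333 (without H2A.ZKO mouse 4) to 2766 (without H2A.ZKO mouse 42) with 1 mouse left out. The number lower was 3724, 2761, 1383, 1887 and 2580 to 3919 in the same order. Under the other alternatives both counts stayed within 1.5 times their value. The smaller number of mice is a part of the construction of the fits with fewer mice, and beyond that the cause was not tested. DESeq2 called 8 genes higher and 2 lower against H2A.Z.1WT, 18 and 2 against H2A.Z.1KA, and 5 and 1 for the difference between the sexes, where edgeR called 0. Leaving out 1 mouse gave 0 to 4 higher and 0 to 1 lower against H2A.Z.1KA (the largest without H2A.Z.1KQ mouse 45) and 0 in the others.

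Directions turned at these log2 fold changes for genes not called, and for Wnt10a. With 1 mouse left out Prox1 ranged from -0.090 to 0.199 (negative without H2A.Z.1KQ mouse 8, at -0.011, or 44), Arc from -0.472 to 0.290 and Rabepk from -0.027 to 0.137 (both turned without H2A.ZKO mouse 42), Th from -0.022 (without H2A.Z.1KQ mouse 45) to 0.794, and Fkbp5 from -0.088 to 0.049 (without H2A.ZKO mouse 21). With H2A.ZKO mouse 21 and H2A.Z.1KQ mouse 8 left out, Prox1 was at -0.023 and Fkbp5 at 0.043. With H2A.ZKO mouse 42 and H2A.Z.1KQ mice 44 and 45 left out, Arc was at 0.479, Rabepk at -0.035, H2az1 at -0.063, Th at -0.289 and Fkbp5 at 0.006. With the 5 mice of high Ttr left out, Arc was at 0.789, Amigo2 at 0.300, Ttr at 0.525, Fkbp5 at 0.173, Adar at 0.104 and Eomes at 0.218, and Wnt10a, which was called in the full fit, at -0.162. Of the 150 genes, 57 lost their call in that last fit and 22 with only the compared groups, without turning. No paired analysis was possible because each mouse has a number of its own.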
